A study of Mus musculus with 2 samples.

Results

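The cells described here were 115 of 5263 CD45+ cells of the mouse heart that carried the reads of a lipid-associated macrophage. They were chosen by their CPM, which is the reads of a gene per 1000000 reads of that cell. A member had at least 200 CPM of *Gpnmb*, 200 CPM of *Csf1r* and 2000 CPM of *Lyz2*, and at least 100 CPM of *Trem2* or 300 CPM of *Ms4a7*. It also had under 1000 CPM of *Saa3* and of *Ly6c2*, under 50 CPM of *Mki67*, under 200 CPM of *Cd79a*, and fewer than 2 of the resident genes *Lyve1*, *Folr2*, *Cd163* and *Cbr2* at 100 CPM or more. Since measured values chose these cells, the levels of their genes against other cells are a description without a test.

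The hearts came from mice 1 week after transverse aortic constriction (TAC), which puts the left ventricle under pressure overload, or after sham surgery. Leukocytes were enriched with a magnetic selection for CD45, marked with 1 hashtag per group and pooled into 1 TAS-Seq library (BD Rhapsody), in which each cell gets its own barcode. The comparison asks how heart macrophages differ when T cells are missing. There were 2 sham groups, WT sham and CD3ϵ-/- sham, and 3 under pressure overload, called WT TAC, CD3ϵ-/- TAC and, last, CD8+T cell-depleted TAC. Lists of 5 values keep that order. WT mice were C57BL/6N males of 8 weeks, CD3ϵ-/- mice carry the deletion in every cell and lack T cells from birth, and the last group was WT mice under TAC that were injected repeatedly with an antibody to CD8. All 3 TAC groups shared the surgery and the 1 week that followed it. Each group was 1 sample, the number of mice pooled under a hashtag is not given in the sources used here, and no test between groups was possible.

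Kept cells numbered 1000, 835, 1615, 919 and 894, and their median depth was 75442, 78372, 98869, 117788 and 98471 reads. No cell barcode was shared between groups. T cells with *Cd3g* and *Trac* or *Trbc2*, each at 50 CPM or more, made up 4.90%, 0.359%, 2.91%, 0% and 3.58% of the kept cells, where 0 of 919 cells allows a share of up to 0.401% (the exact upper limit). Cells with *Cd8a* or *Cd8b1* at 50 CPM or more and without the *Csf1r* level made up 0.743% (exact interval 0.385% to 1.29%) in WT TAC and 0.671% (0.247% to 1.46%) in the group labelled CD8+T cell-depleted TAC. A loss of such cells in the last group was therefore not detectable in its transcripts at this depth. The same measure gave 0.7% in WT sham, and it found 1 cell in CD3ϵ-/- sham (0.120%) and 1 in CD3ϵ-/- TAC (0.109%). No T cell gene was required of the cells counted so. Within these data, the directions given for the last group rest on its label. The paper also counted CD4+ and CD8+ T cells of the heart by flow cytometry after CD8+ T cell depletion, which was not analysed here.

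Lipid-associated macrophages are known from fat tissue, atherosclerotic arteries and injured organs, where they take up lipid and cell debris. TREM2 is a surface receptor for lipids, lipoproteins and dying cells that signals through the adaptor TYROBP and the kinase SYK. GPNMB is a glycoprotein of late endosomes and lysosomes, the organelles that break the cargo down, and its gene is a known target of the MITF and TFE family of transcription factors. No lipid was measured in these cells, so the name stands for transcripts only.

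Macrophages with these reads were rare in sham hearts and more frequent after TAC. They were 10, 4, 55, 27 and 19 cells in the 5 groups. WT sham had a share of 1.00% of the kept cells (exact 95% interval 0.481% to 1.83%) and CD3ϵ-/- sham one of 0.479% (0.131% to 1.22%). WT TAC had 3.41% (2.58% to 4.41%), CD3ϵ-/- TAC 2.94% (1.94% to 4.25%) and CD8+T cell-depleted TAC 2.13% (1.28% to 3.30%). The share in WT TAC was 2.41 percentage points above WT sham (Newcombe interval 1.27 to 3.51), and that in CD3ϵ-/- TAC was 2.46 points above CD3ϵ-/- sham (1.28 to 3.79), so both intervals lay above 0. CD3ϵ-/- TAC differed from WT TAC by −0.468 points (−1.82 to 1.05). CD8+T cell-depleted TAC differed from WT TAC by −1.28 points (−2.54 to 0.126). Both of these intervals contained 0, so that a difference between the TAC groups was not detectable at this depth, and both rest on the same WT TAC cells. All intervals cover counting error only and not the spread between mice.

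The denominator bore on the order of the TAC groups. Of the 565, 485, 1095, 672 and 607 cells past the *Csf1r* and *Lyz2* limits, 1.77%, 0.825%, 5.02%, 4.02% and 3.13% were members, in the order seen among all kept cells. Of those that were also below the 4 upper limits, 1.96%, 0.976%, 6.06%, 6.19% and 4.51% were members, which put CD3ϵ-/- TAC slightly above WT TAC. Among the cells past the *Csf1r* and *Lyz2* limits, CD8+T cell-depleted TAC was 1.89 points lower than WT TAC, with an interval of −3.73 to 0.162. For comparison, macrophages with at least 2 of the 4 resident genes (resident-type cells) made up 14.5%, 6.35%, 7.93%, 5.66% and 9.17% of the kept cells. Cells with at least 1000 CPM of *Spp1* and under 200 CPM of *Gpnmb* (Spp1-type cells) made up 0.7%, 0.838%, 2.48%, 3.16% and 2.46%. They were also past the *Csf1r* and *Lyz2* limits, below the 4 upper limits and under 2 resident genes. Unlike for members, no level of *Trem2* or *Ms4a7* was required of them.

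**Figure D1:**
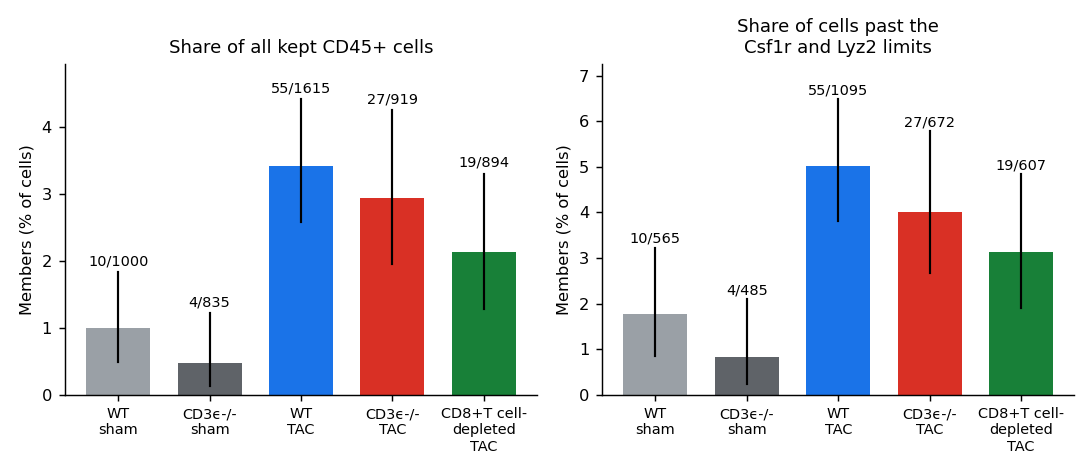
Share of *Gpnmb* *Trem2* macrophages (y axis, % of cells) per group, among all kept CD45+ cells (left) and among cells past the *Csf1r* and *Lyz2* limits (right). Bars are the shares, lines the exact 95% intervals of the counts and labels the cells counted, and the 3 TAC bars stand above both sham bars, with overlapping intervals among the TAC groups.

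The limits set these cells apart from a population that mostly had no *Gpnmb* reads. Of 1119 cells that passed every other limit and missed that of *Gpnmb*, 1104 had no *Gpnmb* read. The members closest to the limit had 202, 204 and 206 CPM of *Gpnmb*, and the nearest cells below it had 168, 156 and 154 CPM. From 157 cells with 200 CPM of *Gpnmb* or more, 148 passed *Csf1r* and *Lyz2*, 141 also *Trem2* or *Ms4a7*, 125 also the 4 upper limits and 115 also the limit on resident genes. Of the cells left out, 4 failed by *Ly6c2* alone, and all 4 came from CD8+T cell-depleted TAC. Another 5 failed by *Trem2* and *Ms4a7* alone, of which 4 came from that group. With only the *Gpnmb*, *Csf1r* and *Lyz2* limits, WT TAC had 67 cells and CD8+T cell-depleted TAC 31. The part of the later limits in the difference between these groups was not tested. *Trem2* and *Ms4a7* were both past their limits in 83 members, *Trem2* alone in 31 and *Ms4a7* alone in 1.

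Members were also deeper than other cells, with a median of 167475 reads and 5223 genes. Resident-type cells had 85427 reads and 3558 genes, and Spp1-type cells 130879 reads and 4968 genes. By group, the members had medians between 160459 and 187652 reads. When each cell was thinned to 39109 reads, 109 cells met the rule. *Gpnmb* was then read in 0 of 278 cells with 1000 CPM or more of *Cd79a* (B cells), which allows a share of up to 1.08%.

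The markers of the label had the following levels, given as the summed reads of a gene over the summed reads of the members of a group, in CPM. *Gpnmb*, which the rule used, was at 2094, 1817, 1649, 1469.7 and 1302 CPM. In WT TAC its exact Poisson interval was 1625 to 1673 CPM, which counts reads and is too narrow since reads of 1 molecule are not independent. Single cells ranged from 202 to 6428 CPM. *Trem2* was at 761, 522, 1137, 1173 and 1012 CPM, and *Ms4a7*, a membrane protein of macrophages related to CD20, at 268, 451, 1492, 1394 and 1135 CPM. The values of *Trem2* and *Ms4a7*, which the rule also used, were higher in each TAC group than in either sham group. Those of *Gpnmb* were highest in the sham groups. Since these genes chose the cells and the sham groups held 10 and 4 members, nothing is read from these orders.

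The other 4 markers were not part of the rule, but come from the same reads. *Apoe*, the apolipoprotein with which macrophages export cholesterol, was at 23470.2, 24725, 49273, 47571 and 43963 CPM, so each TAC group had more of it than either sham group. It was read in all 115 members, with 23867 CPM in resident-type and 14207 CPM in Spp1-type cells. *Ctsd*, the lysosomal protease cathepsin D, was at 6059.8, 6541, 8399, 8042 and 8691 CPM against 2109 CPM in resident-type and 2204 CPM in Spp1-type cells. It was read in 114 of 115 members, and 1 cell of WT TAC had no read. *Syngr1*, a vesicle membrane protein, was at 129, 155, 113, 103 and 110.4 CPM against 19.97 and 7.06 CPM in the same cells. *Atp6v0d2*, a subunit of the proton pump that acidifies lysosomes, was at 270.4, 82.7, 164, 317 and 244 CPM. It was read in 45 of 115 members against 27 of 460 resident-type and 8 of 105 Spp1-type cells, so most of the cells so chosen did not show it.

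Genes of B and T cells were near 0 in the members, while genes of monocytes were read. The summed level of 6 B cell genes lay between 0 and 15.9 CPM in the 5 groups, with *Cd79a* at 0, and that of 6 T cell genes between 0 and 4.47 CPM, with *Cd3g*, *Trac* and *Trbc2* at 0. *Lyve1* was at 0 in all 115 members, which allows up to 2.61% of cells with a read, and 6 resident genes summed to between 33.9 and 327 CPM against 3300.4 CPM in resident-type cells. The rule limited *Cd79a*, *Ly6c2* and 4 of these resident genes, *Lyve1* among them, and the same 4 chose the resident-type cells. Their low levels and that contrast were thus partly set in advance. The 6 genes of *Ly6c*-high monocytes summed to 1546, 870.3, 952, 343 and 886 CPM, of which *Ccr2*, a receptor of inflammatory monocytes, made up 758, 460.1, 761, 284 and 738 CPM. They summed to 620 CPM in resident-type cells, and 15 members had 200 CPM or more of at least 2 of them. The 6 neutrophil genes summed to between 42.8 and 156 CPM. The part of monocyte transcripts in the differences between groups was not tested. Of 6 osteoclast genes, a cell type that also uses *Atp6v0d2* and *Acp5*, 5 were in the matrix and summed to between 115 and 606 CPM, and *Dcstamp* was at 0.

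**Figure D2:**
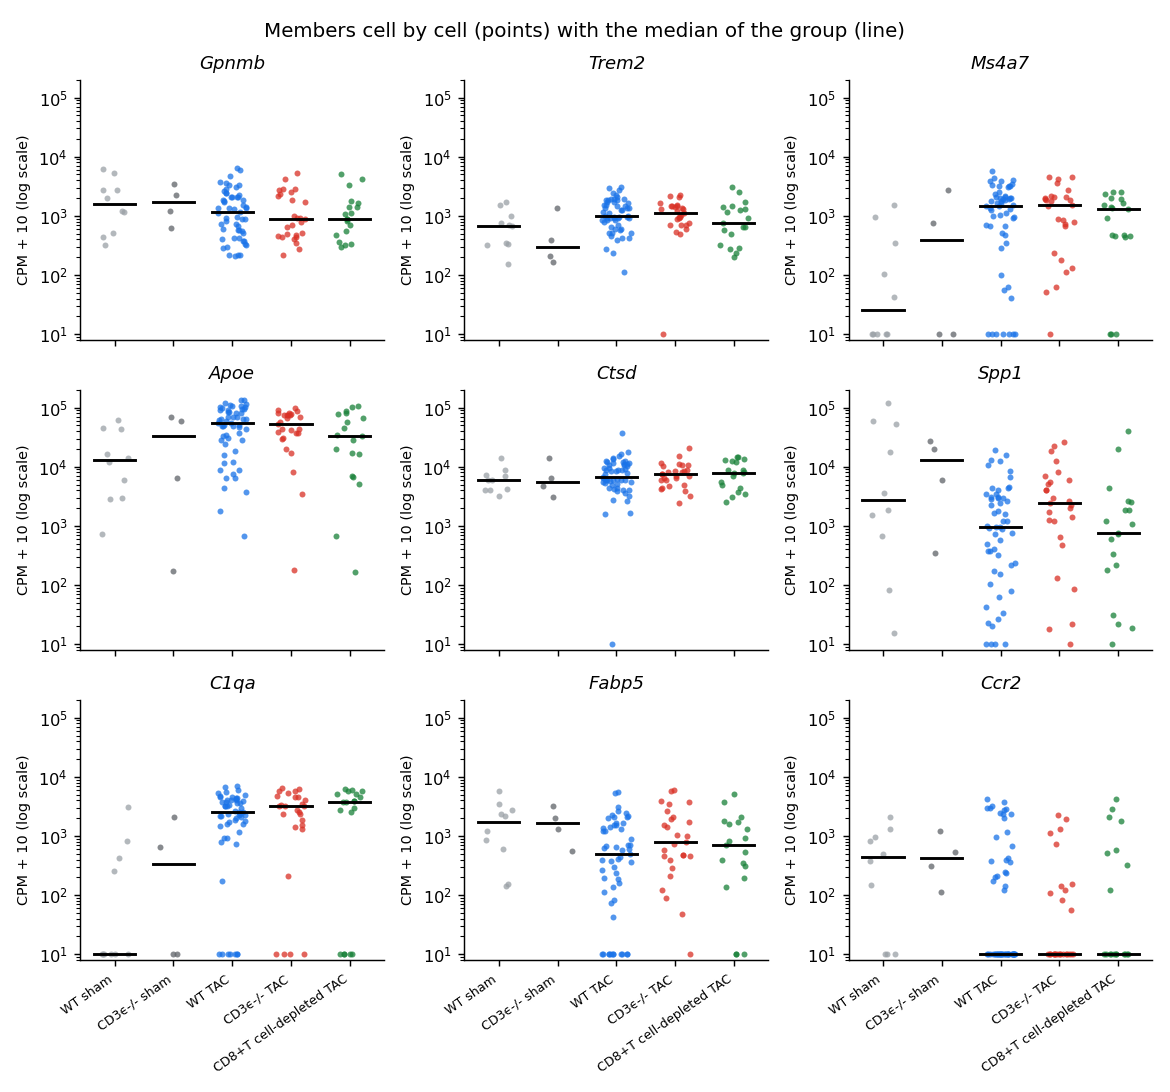
Each point is 1 *Gpnmb* *Trem2* macrophage, placed by the CPM of a gene plus 10 on a log axis (y) and by its group (x), and the line is the median of the group. *C1qa* and *Ms4a7*, the latter used by the rule, reach 1000 CPM in most TAC cells and in few sham cells. The medians of *Spp1* and *Fabp5* are higher in both sham groups than in WT TAC.

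The few sham members carried less *C1qa* and a higher summed level of *Spp1* than those of TAC hearts. *C1qa*, a chain of the complement protein C1q that macrophages make, reached 1000 CPM in 2 of 14 sham members (14.3%) and in 79 of 101 TAC members (78.2%). Its summed level was 513, 529, 2720.2, 2716 and 3353 CPM, so both sham groups were below every TAC group. *Spp1* (osteopontin, a secreted matrix protein of wound macrophages) ran the other way with 18129, 15496, 2702, 6033 and 3877 CPM. In WT sham its single cells spanned 5.38 to 120107 CPM with a median of 2709 CPM, and the highest cell gave 34.7% of the reads. At least 5000 CPM of *Spp1* was found in 7 of 14 sham members and in 18 of 101 TAC members. The contrast was smaller at 1000 CPM, with 10 of 14 (71.4%) and 55 of 101 (54.5%). Within CD3ϵ-/- mice, 3 of 4 sham members and 20 of 27 TAC members had 1000 CPM or more. *Fabp5*, a carrier of fatty acids, was at 1714, 1371, 1177, 1599 and 1092 CPM, and 12 of 14 sham members had 500 CPM or more (85.7%, 57.2% to 98.2%) against 54 of 101 (53.5%, 43.3% to 63.5%). *Ctsk*, cathepsin K of osteoclasts, was at 239, 106, 11.7, 3.61 and 38.8 CPM, and 6 of 14 sham members had 50 CPM or more against 9 of 101. *Chil3* and *Cxcl2*, products of inflammatory monocytes and neutrophils, were at 611, 276, 126, 9.88 and 78.5 CPM and at 3853, 4967, 701, 576 and 1909 CPM. With 10 and 4 cells, no ratio to the sham groups is given.

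Over the 115 members, which share a library and 5 groups and were all chosen with a lower limit on *Gpnmb*, Spearman's rho with *Gpnmb* was 0.41 for *Fabp5*, 0.39 for *Ctsd*, 0.38 for *Ctsb* and 0.37 for *Cd68*. It was 0.08 for *Apoe*. Lowest were *Ctsc* with −0.38, *Ccl9* with −0.36 and the mannose receptor *Mrc1* with −0.32. With the reads per cell, *Gpnmb* had a rho of 0.03. A second group of genes followed *C1qa*, with a rho of 0.85 for *C1qc*, 0.69 for *Ms4a7* and 0.59 for *Apoe*, and with −0.53 for *Lgals3* and −0.48 for *Ccr2*. Between *Spp1* and *C1qa* rho was −0.10. These values describe the cells of all groups together and are given without a p. By summed level *C1qa*, *Ms4a7* and *Apoe* were lower in both sham groups than in each TAC group, and the rule also used *Ms4a7*. No rho within a group was taken, so the part of the groups in these values was not tested.

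Against all other *Csf1r* *Lyz2* cells, the 15 highest log2 ratios among genes of 100 CPM or more (10 CPM added to both levels) were those of *Gpnmb* (5.36), *Fabp5* (3.71), *Spp1* (3.65), *Atp6v0d2* (3.28), *Anpep* (2.93), *Syngr1* (2.86), *Ctsd* (2.79), *Il7r* (2.56), *Lhfpl2* (2.47), *Igf2r* (2.30), *Gm49369* (2.29), *Cd63* (2.20), *Trem2* (2.19), *Fam20c* (2.12) and *Acp5* (2.1). *Igf2r* carries lysosomal enzymes to their organelle, *Cd63* is a tetraspanin of late endosomes, *Anpep* is an aminopeptidase of the cell surface and *Il7r* a chain of the interleukin-7 receptor. *Il7r* was at 217, 622, 140.2, 264 and 199 CPM and was read in 5, 2, 29, 10 and 9 members.

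Against resident-type cells, 9 of 16 genes of lipid handling were at least 2-fold higher in the members. Of 3848 genes at 50 CPM or more in either kind of cell, 3.98% were 2-fold or more higher and 4.89% 2-fold or more lower in the members, and the median over all genes was a log2 ratio of −0.05. None of the lipid genes was lower, and their median was 1.14. The higher ones were the lipase *Lipa* and the exporter *Npc1*, which free cholesterol in the lysosome and let it out, the enzymes *Soat1* and *Nceh1*, which store it as ester and release it, and *Abcg1*, *Lpl*, *Plin2*, *Apoc2* and *Fabp5*. *Lpl*, which cleaves the fat of lipoproteins, was at 1678 CPM against 531 CPM. *Fabp5* was at 1320.3 against 75.6 CPM, *Soat1* at 349 against 118 CPM, and *Nceh1* at 312 against 82.3 CPM. The list of lipid-associated macrophage genes had 12 of 13 higher and none lower (median 1.70), among them the lectin *Lgals3* at 3551 against 632 CPM. Of 9 genes of a list around TREM2, without the receptor itself, none was 2-fold higher or lower (median 0.09). The list includes *Tyrobp* and *Syk*, but also *Adam10*, *Adam17* and genes of the *Ms4a* family, so it is wider than the signalling path.

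Lysosomal proteases were among the higher genes. Of 30 lysosome genes, 9 were higher and 1 lower in the members than in resident-type cells (median 0.48). *Ctsb*, cathepsin B, was at 10995 against 5079 CPM, *Ctsl* at 651 against 221 CPM, and *Psap*, which helps break down sphingolipids, at 7768 against 3306 CPM. *Ctsc*, which activates proteases of granules, was lower at 981 against 2033 CPM. Of 16 subunits of the proton pump (V-ATPase), 4 were higher and none lower (median 0.63), namely *Atp6v0c*, *Atp6v0d2*, *Atp6v1a* and *Atp6v1c1*. *Atp6v1a* was at 623 against 235 CPM. Among 10 transcription factors *Bhlhe40* was higher and *Maf* lower, and the lysosome regulator *Mitf*, at 105 against 57.6 CPM, was within 2-fold, as were *Tfeb* and *Tfe3*.

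As lysosome and V-ATPase genes were among the higher ones, the promoters of both lists and of the markers were searched for CACGTG, the core of the sites that MITF, TFEB and TFE3 bind, and for TCATGTG, a related site of MITF, on both strands. The words do not overlap each other. The windows, from RefSeq on GRCm38.p6, ran from 250 bases before to 50 bases after the start of a transcript. CACGTG was found in 8.09% of all 27025 genes, in 8 of 25 matched lysosome genes (32.0%), in 4 of 11 matched V-ATPase genes (36.4%) and in 1 of 6 matched markers, which was *Ctsd*. TCATGTG was found in 4.31% of all genes, in 6 lysosome genes (24%), in 1 V-ATPase gene and in 1 marker, *Ms4a7*. The following stretches are shown because they come from the 3 best-read lysosome genes that hold the word and from 2 V-ATPase genes, and capitals mark CACGTG. No binding was measured here, and a match describes only the letters of the window.
Ctsd, chr7:142387896-142387949, minus strand: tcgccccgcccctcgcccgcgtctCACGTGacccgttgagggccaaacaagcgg
Lgmn, chr12:102439112-102439165, minus strand: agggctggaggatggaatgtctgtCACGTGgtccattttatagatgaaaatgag
Lamp1, chr8:13159076-13159160, plus strand: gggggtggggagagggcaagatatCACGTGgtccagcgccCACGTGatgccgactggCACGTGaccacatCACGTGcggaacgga
Atp6v1a, chr16:44139361-44139414, minus strand: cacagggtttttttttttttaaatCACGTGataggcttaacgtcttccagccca
Atp6v0b, chr4:117887330-117887389, minus strand: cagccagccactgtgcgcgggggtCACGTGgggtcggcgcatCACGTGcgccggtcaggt
*Ctsd* has this word 98 and 245 bases before its start and *Lgmn* 49 bases before it. *Lamp1* holds 4 copies within 61 bases of its start and *Atp6v0b* 2 copies, 36 and 18 bases before the start, and *Atp6v1a* has 1 at 131 bases. *Ctsd* was 2-fold or more higher against both kinds of cells, and *Atp6v1a* against resident-type cells only, with a log2 ratio of 0.80 to Spp1-type cells. *Lgmn* (0.43 and 0.78), *Lamp1* (0.53 and 0.91) and *Atp6v0b* (0.13 and 0.20) were within 2-fold of resident-type and of Spp1-type cells.

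All 6 resident genes were lower than in resident-type cells, 4 of which the rule used. Of 13 genes of the uptake of dying cells and of scavenging, 5 were lower and none higher, with *Gas6*, the bridge between dying cells and their receptors, at 156 against 470.4 CPM and *Mrc1* at 540.1 against 2266 CPM. The receptors *Mertk* (98.8 against 77.2 CPM) and *Axl* (234 against 247 CPM) were within 2-fold. Among the complement genes *C4b* was lower and *C3* higher. Of 12 immediate early and heat shock genes, which respond to stress and also to tissue digestion, 7 were lower and none higher (median −1.31), with *Hspa1a* at 14.3 against 417 CPM. The part of cell isolation in these stress genes was not tested. The ferritin genes *Fth1* and *Ftl1*, which store iron, were higher with 10841 against 4674 CPM and 15809.5 against 7363 CPM. No gene of 7 of MHC class II was 2-fold changed.

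The 2 kinds of cell came from the groups in unequal parts, since 145 and 53 of the 460 resident-type cells were from WT sham and CD3ϵ-/- sham, and 10 and 4 of the 115 members. The same ratios were therefore taken within each TAC group, an alternative chosen after seeing the data. Of the 9 lipid genes, 6 were 2-fold or more higher than in resident-type cells in each of the 3 TAC groups, namely *Apoc2*, *Lpl*, *Fabp5*, *Plin2*, *Soat1* and *Nceh1*, and the medians of the lipid list were 1.03, 0.93 and 1.08. Of the 9 lysosome genes only *Gla*, the enzyme alpha-galactosidase A, was so in each group, with medians of the list of 0.39, 0.47 and 0.52. *Ctsd* had ratios of 1.44, 0.92 and 2.70 and *Ctsb* of 0.72, 0.93 and 1.21. Of the 4 V-ATPase genes *Atp6v0d2* was so in each group. The stress genes had medians of −0.99, −0.35 and −0.19 within the groups, and of the 7 lower ones only *Hspa1a* was lower in each. Of the 12 lipid-associated macrophage genes, 7 were higher in each group, while *Cd9* (−0.38) and *Capg* (−0.34) turned in CD3ϵ-/- TAC. Of the 5 lower genes of uptake and scavenging only *Timd4* was lower in each group, and *Gas6* (−0.89) and *Mrc1* (−0.93) were within 2-fold in CD3ϵ-/- TAC. *Bhlhe40* had ratios of 2.29, −0.37 and 2.24, so its direction turned in CD3ϵ-/- TAC, and *Maf* had ratios of −1.17, −0.60 and −1.30. *C3* was at 0.95, 0.44 and 1.74, and of the ferritin genes *Fth1* was higher in each group and *Ftl1* in 1 of 3.

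**Figure D3:**
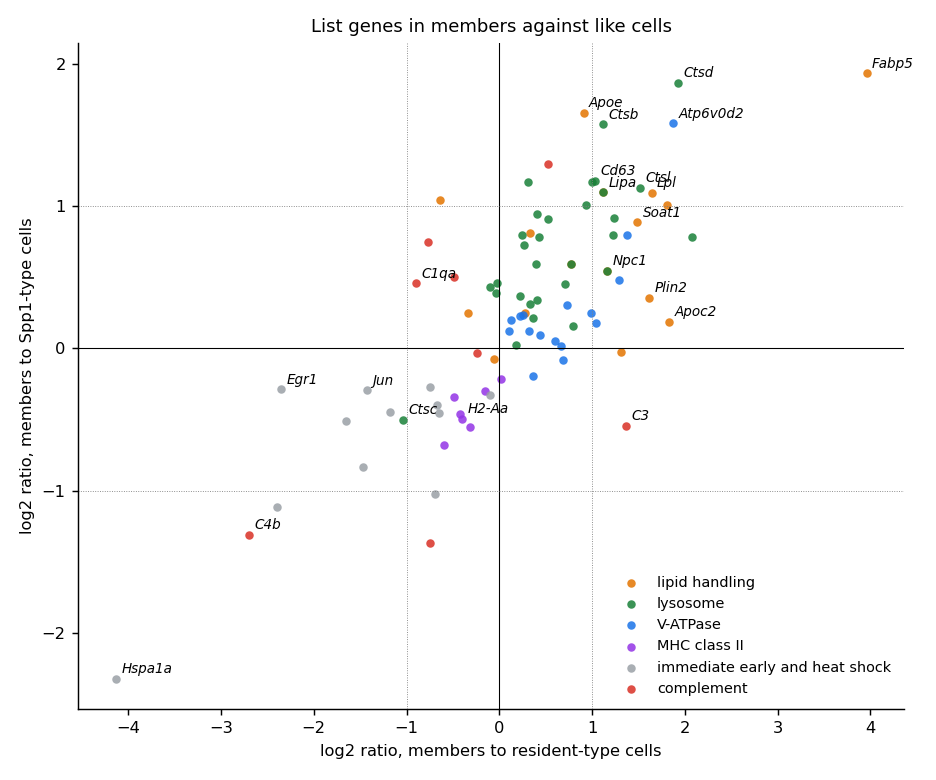
Each point is a gene of 6 lists, placed by its log2 ratio (10 CPM added) of the members to resident-type cells (x axis) and to Spp1-type cells (y axis), with dotted lines at 2-fold. *Fabp5*, *Ctsd*, *Ctsb* and *Atp6v0d2* lie past 2-fold on both axes, V-ATPase genes lie mostly to the right near 0 on the y axis, and heat shock and immediate early genes lie to the lower left. Levels are summed over all 5 groups, and within single TAC groups the stress genes lie nearer to 0 on the x axis.

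Against Spp1-type cells, 6 of 16 lipid and 8 of 30 lysosome genes were 2-fold or more higher in the members, and *Fn1*, *Thbs1* and 5 of 13 chemokines were lower. Of 3843 genes, 2.29% were 2-fold or more higher and 4.19% lower in the members, with a median over all genes of −0.15. None of the lipid genes was lower (median 0.70), and the higher ones were *Apoe*, *Lpl*, *Lipa*, *Fabp5*, *Nceh1* and *Pltp*. No lysosome gene was lower either (median 0.75), with *Ctsb* at 10995 against 3680.5 CPM and *Cd68*, a membrane protein of lysosomes, at 1440.4 against 711 CPM. Of 16 V-ATPase genes only *Atp6v0d2* was higher (median 0.19). Of 13 lipid-associated macrophage genes, 4 were higher and none lower (median 0.31), namely *Cd63*, *Lpl*, *Fabp5* and *Mmp12*. Most of that list was thus within 2-fold of Spp1-type cells, among them *Lgals3* (0.50), *Plin2* (0.36), *Capg* (−0.09) and *Cd9* (−0.51). *Igf1*, insulin-like growth factor 1, was at 576 CPM in members against 115 CPM, and close to the 495 CPM of resident-type cells. Lower in the members were *Fn1*, *Tgfbi* and *Thbs1* of 10 matrix genes, 5 of 13 chemokines (*Ccl2*, *Ccl7*, *Ccl12*, *Ccl24* and *Cxcl10*) and 4 of 11 interferon response genes. *Fn1*, fibronectin, was at 1094 against 4030.3 CPM and *Thbs1*, thrombospondin-1, at 129.6 against 926 CPM. *Spp1* itself, which chose the Spp1-type cells, was at 5570.1 against 5642 CPM. Within the TAC groups, 4 of the 6 lipid and 4 of the 8 lysosome genes were 2-fold or more higher in each of the 3, and the medians of the lysosome list were 0.79, 0.85 and 0.45. Among them were *Ctsd*, *Cd63* and *Apoe*, whereas *Lpl* was so in 2 of 3 groups. Of the lower genes, *Fn1* and *Thbs1* and the chemokines *Ccl12* and *Cxcl10* were lower in each group, and *Ccl7* turned to 0.18 in the last group. No gene of the 4 interferon genes was lower in each, and *Rsad2* turned to 0.43 in CD3ϵ-/- TAC. *Igf1* had ratios of 2.51, 2.78 and 0.55.

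Few genes of the members were 2-fold changed against WT TAC in the groups with missing or targeted T cells. Both comparisons below use the same 55 cells of WT TAC, and values are log2 ratios of summed CPM with 10 CPM added, each from 1 sample a group without a replicate check. All 7 markers had ratios between −0.17 and 0.91 in CD3ϵ-/- TAC and between −0.39 and 0.54 in CD8+T cell-depleted TAC. *Gpnmb*, *Trem2* and *Ms4a7* among them chose the cells in every group, so nothing is read from their ratios. Of 4129 genes at 50 CPM or more in the members of a TAC group, 1.89% were 2-fold or more higher and 2.4% lower in CD3ϵ-/- TAC. In CD8+T cell-depleted TAC, 2.95% were higher and 4.36% lower. Medians over these genes were 0.01 and −0.01. With so few genes changed, 0 of 7 markers past 2-fold is near the background and no result about the markers. With 27 and 19 cells, single cells often carried a gene, so the ratio without the member that had the most reads of the gene in each group is given too, an alternative chosen after seeing the data. Of the 30 genes of the lists and rules described here that were 2-fold changed in CD3ϵ-/- TAC, 21 remained so without those cells, and 22 of 33 did in CD8+T cell-depleted TAC.

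In CD3ϵ-/- TAC most lipid and lysosome genes were within 2-fold of WT TAC, as were most of all 4129 genes (1.89% higher and 2.4% lower). Of 17 lipid handling genes 1 was higher, which was *Fabp4*, a carrier of fatty acids, and none was lower (median 0.14). Of 31 lysosome genes *Ctsl* and *Mcoln1* were higher (median 0.07), and none of 16 V-ATPase genes was changed. These counts are near the share over all genes and no result about the lists. *Ctsl*, cathepsin L, was at 484, 1437 and 299.9 CPM, where lists of 3 values follow the order of the TAC groups. Of the reads in CD3ϵ-/- TAC, 1 cell gave 50.1%, and the log2 ratio of 1.55 fell to 0.75 without the top cell of each group. At least 1000 CPM was found in 7 of 27 members (11.1% to 46.3%) against 5 of 55 in WT TAC (3.02% to 19.95%). These intervals overlapped, which does not decide whether the shares differ, and no interval of the difference was taken. *Spp1* was at 2702, 6033 and 3877 CPM, a log2 ratio of 1.16 and of 0.88 without the top cells. It passed 1000 CPM in 20 of 27 members (74.1%, exact interval 53.7% to 88.9%) and in 26 of 55 of WT TAC (47.3%, 33.7% to 61.2%). For *Spp1* too, the overlap of the intervals does not decide whether the shares differ. *Gdf15*, a stress cytokine, was at 18.0, 125 and 39.4 CPM and read in 5 of 27 members.

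The monocyte genes *Ccr2* and *Chil3* and 4 interferon genes were lower in CD3ϵ-/- TAC. *Ccr2* was at 761, 284 and 738 CPM, a log2 ratio of −1.39 (−1.67 without the top cells). However, 500 CPM or more was found in 5 of 27 members (18.5%, 6.30% to 38.1%) against 14 of 55 (25.5%, 14.7% to 39.0%). These intervals overlapped, and no interval of the difference was taken. *Chil3* was at 126, 9.88 and 78.5 CPM and was read in 1 of 27 members against 16 of 55. Of 11 interferon response genes 4 were lower and none higher (median −0.62), namely *Ifit2*, *Oasl2*, *Usp18* and *Gbp2*. *Oasl2* was at 129, 49.2 and 96.6 CPM, and *Usp18*, which dampens the interferon receptor, had no read in 27 members, which allows up to 11.1% of cells, and was at 23.5 CPM in WT TAC. *Usp18* was thus under 50 CPM in both groups compared and was counted only for its level in CD8+T cell-depleted TAC. The complement genes *Cfb* (1.17) and *C4b* (1.67) were higher, and so were *Ccl4* and *Ccl8* of 12 chemokines while *Ccl7* was lower. *Slc40a1*, the iron exporter ferroportin, was at 34.0, 87.0 and 0 CPM and was read in 9, 8 and 0 members, where 0 of 19 allows up to 15.8%. Among resident genes *Folr2* was at 24.02, 86.4 and 14.7 CPM, read in 5, 5 and 1 members.

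In CD8+T cell-depleted TAC, the lipid uptake genes *Lpl* and *Cd36* were lower in summed level, and 1 of 7 MHC class II genes was 2-fold higher. *Lpl* was at 851 against 1903 CPM (−1.15, or −1.45 without the top cells), but 7 of 19 members had 1000 CPM or more against 20 of 55 (36.8% and 36.4%). *Cd36*, a receptor for fatty acids and oxidized lipoproteins, was at 101 against 332 CPM (−1.63, or −1.68), with 4 of 19 members at 200 CPM or more against 15 of 55. *Apoc2* was the lipid gene that was higher (1.24). *Mmp12*, macrophage elastase, was at 702, 1113 and 42.2 CPM and was read in 9, 4 and 3 members, with 1 cell giving 67.0% of the reads in WT TAC. All 7 MHC class II genes had a positive ratio, between 0.44 and 1.25 with a median of 0.61, and only *Ciita*, their regulator, passed 2-fold. *H2-Aa* was at 2181, 1879 and 3839.6 CPM, with 2000 CPM or more in 12 of 55, 10 of 27 and 8 of 19 members. None of 31 lysosome and of 16 V-ATPase genes was 2-fold changed. Over all genes 2.95% were higher and 4.36% lower, so this is near the background and no result about these lists.

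**Figure D4:**
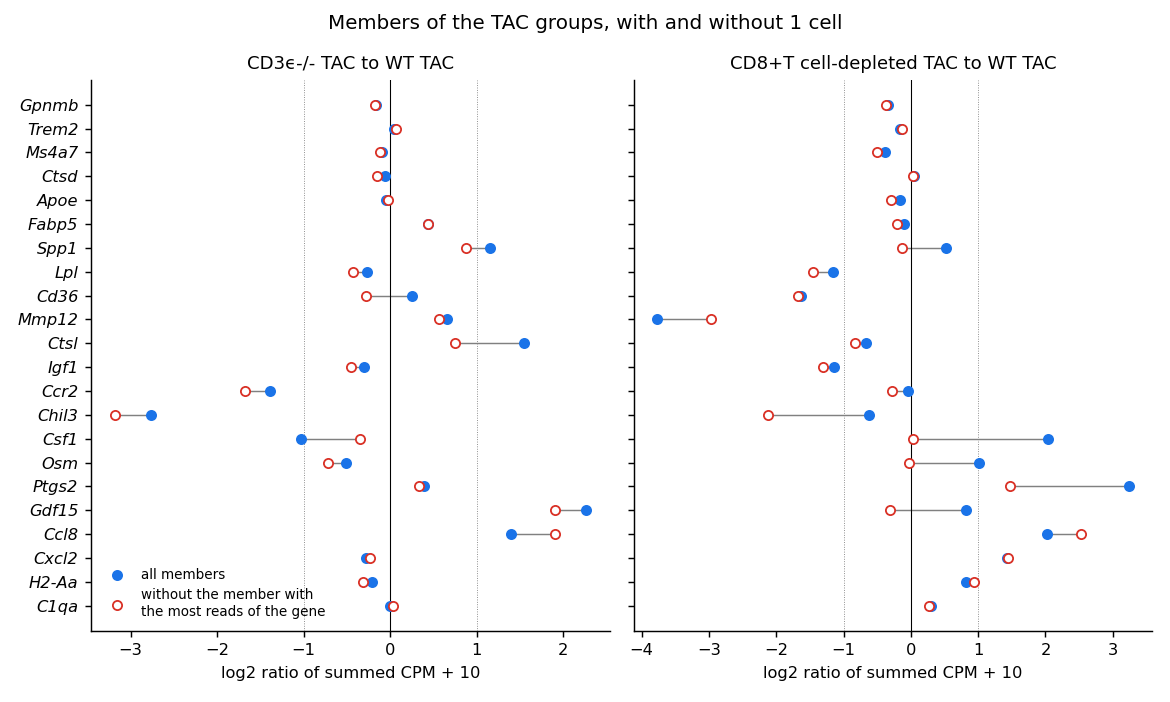
Log2 ratios of summed CPM plus 10 (x axis) of CD3ϵ-/- TAC (left) and CD8+T cell-depleted TAC (right) to WT TAC for 22 genes (y axis), from all members (filled) and without the member with the most reads of that gene in each group (open). The 5 markers shown, 3 of which the rule used, lie between the dotted lines at 2-fold, while *Csf1*, *Osm* and *Ptgs2* in the right panel move towards 0 without the top cell of each group.

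Of the growth and inflammation genes that the study names for its macrophages, *Igf1* was read in most of these cells, and *Csf1*, *Ptgs2*, *Areg*, *Il10* and *Arg1* in few. *Igf1* was at 648, 524 and 289 CPM in the TAC groups, lower in CD8+T cell-depleted TAC (−1.14), and was read in 42, 21 and 12 members. It reached 500 CPM in 24 of 55, 10 of 27 and 5 of 19 members. That was 43.6% (30.3% to 57.7%) in WT TAC and 26.3% (9.15% to 51.2%) in CD8+T cell-depleted TAC, with wide intervals from few cells. *Osm*, oncostatin M, was at 91.7, 61.2 and 196 CPM, but 1 cell gave 66.9% of the reads in CD8+T cell-depleted TAC. The ratio of 1.02 of that group fell to −0.03 without the top cell of each group. *Csf1*, the growth factor of macrophages, was at 34.0, 11.6 and 171 CPM, of which 1 cell gave 98.4% in the last group. Its ratio there fell from 2.04 to 0.03 without the top cells. *Ptgs2* (cyclooxygenase-2) was at 3.81, 8.17 and 120.4 CPM and was read in 1, 2 and 3 members. *Areg*, amphiregulin, was read in 1 of all 115 members, a cell of CD8+T cell-depleted TAC. *Il10* was read in 2, 0, 1, 3 and 2 members. *Arg1*, arginase, was at 176 and 386 CPM in WT and CD3ϵ-/- TAC, read in 6 and 4 members, and in none of the 19 of CD8+T cell-depleted TAC, which allows up to 15.8%. *Msr1*, a scavenger receptor, was at 240.1, 618, 262, 332 and 237 CPM, *Adgre1* (F4/80) at 305, 294, 558, 608 and 483 CPM, *Cd68* at 1063, 1380.2, 1380.0, 1574 and 1684 CPM and *Cd163*, a rule gene, at 20.9, 0, 0, 2.28 and 2.81 CPM.

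As a background for such shares, cells were thinned to 39109 reads, and *Osm* was then read in 14 of 52, 7 of 26 and 4 of 18 members of the TAC groups against 2 of 278 B cells (0.719%). *Spp1* had a higher background, as 77 of 278 thinned B cells had a read (27.7%) against 46 of 52, 24 of 26 and 16 of 18 thinned members. *Igf1* was read in 41 of 52, 20 of 26 and 11 of 18 thinned members against 2 of 278 B cells. *Il10* was read in 5 of 110 thinned members (4.55%, 1.49% to 10.3%) against 2 of 278 (0.719%, 0.0872% to 2.57%). These intervals overlapped, which does not decide whether the shares differ. No interval of the difference was taken, so nothing is concluded for *Il10* against this background.

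Both comparisons share WT TAC, so a gene that is high or low in those 55 cells moves both ratios. By the smaller of its log2 ratios, the highest genes of the 4129 were *Senp2* (1.54 and 1.29), *Ccl8* (1.40 and 2.02), *Ly6a* (1.36 and 1.65), *Nfkbiz* (1.28 and 1.63) and *6430548M08Rik* (1.47 and 1.25). *Ccl8*, a chemokine of macrophages, was at 40.0, 122 and 193 CPM and passed 100 CPM in 4 of 55, 7 of 27 and 4 of 19 members, and in 0 of 278 thinned B cells was it read, which allows up to 1.08%. *Nfkbiz*, a nuclear regulator of NF-κB, was at 35.4, 101 and 131 CPM, which was below the 418 CPM of resident-type cells in each group. *Ly6a* rested on 2, 2 and 4 cells. The lowest were *Hgsnat* (−2.09 and −1.54), *Afg3l1*, *Tmem141*, *Parp4* and *Eng*, the last 4 between −1.15 and −1.49. *Hgsnat*, a lysosomal enzyme, had 75.8% of its WT TAC reads from 1 cell, and its ratios were −0.73 and −0.30 without the top cells.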

How the data were processed

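CD45+ heart cells of 5 hashtagged groups were read from 1 matrix of raw counts. The authors deposited these counts as whole reads per gene and cell barcode, without normalization, after they had kept barcodes above an inflection point, corrected errors by the distribution of reads and assigned hashtags. They are reads and not molecules, so reads of 1 molecule are not independent. The submitters' processing notes name cutadapt 2.10 and Bowtie2 2.4.2. The group of each hashtag came from notes deposited with the matrix. Of 5363 columns, 48 with a doublet call or no hashtag were not used, and a cell was kept when at least 500 genes were read and at most 0.4 of its reads were mitochondrial. Doublets were not called again.

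Levels are summed reads over the summed reads of the cells of a kind, in CPM, and log2 ratios add 10 CPM to both levels. Against another kind of cell, genes with 50 CPM or more in either kind were counted. For ratios to WT TAC, genes with 50 CPM or more in the members of any of the 3 TAC groups were counted. A gene was called changed at 2-fold. With 1 sample a group there was nothing to test, and neither p-values nor standard errors are given. Shares have exact Clopper-Pearson intervals, their differences Newcombe intervals and summed reads exact Poisson intervals, all of 95% and for counting error only. Where 0 of 19 or more cells had a read, the limit given is the share that 3 cells would make, and the T cell share of CD3ϵ-/- TAC has the exact upper limit. For shares of cells with a read, cells were thinned to 39109 reads and shallower cells left out.

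The members, the 16 gene lists (212 genes) and the marker lists were chosen with earlier results of these data known. Genes named were the 7 markers, list genes of the largest ratios at 50 CPM or more, genes that the study names for its macrophages, the 5 highest and 5 lowest by the smaller ratio to WT TAC, and the 15 highest against other *Csf1r* *Lyz2* cells. Genes outside this rule (*Lgmn*, *Lamp1* and *Atp6v0b* among the promoters, and list members named for their role) were chosen after their values were seen. Scripts ran under Python 3.11.15 with pandas 2.3.3, scipy 1.17.1 and numpy 2.4.6, figures were drawn with matplotlib 3.10.9, and the steps were tested on simulated data. Alternatives changed the limits of the rule, the filters, the depth, the denominator, the added CPM and the averaging. The values of some list genes are not reported here, and the cardiomyocyte data of the paper were not analysed here.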

Additional observations from a re-analysis of the deposited data

How the results depend on the processing

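Each difference in share kept its direction and the side of 0 of its interval under every planned limit, filter, depth and denominator tried, with 83 to 130 members. Among cells past *Csf1r* and *Lyz2* and below the 4 upper limits, CD3ϵ-/- TAC was at 6.19% and WT TAC at 6.06%, a difference of 0.129 points whose interval contained 0, and the differences to sham were 4.11 points in WT and 5.22 points in CD3ϵ-/- mice. With *Trem2* and *Ms4a7* both required, sham shares were 0.3% and 0.24%. The number of genes past 2-fold depended on the setting. In CD3ϵ-/- TAC, 78 genes were higher, and 137 with the mean of CPM over cells, 133 with 1 CPM added, 133 without the 10% of members with the most reads (the deepest members), 36 without the member with the most reads of the gene and 127 among members with both *Trem2* and *Ms4a7*. There 99 were lower, and 159 with 1 CPM added and 168 among members with both genes. In CD8+T cell-depleted TAC, 122 were higher, and 184 with the mean over cells, 184 with 1 CPM added, 201 without the deepest members, 264 with a *Gpnmb* limit of 400 CPM and 50 without the top cell. There 180 were lower, and 285 with the *Gpnmb* limit of 400 CPM and 275 without the top cell. Against resident-type cells, 153 genes were higher and 188 lower with all groups summed, and 298 and 460 within CD8+T cell-depleted TAC. Against Spp1-type cells 88 were higher and 161 lower, and 224 and 314 within WT TAC, 258 and 442 within CD3ϵ-/- TAC and 242 and 563 within CD8+T cell-depleted TAC, where fewer cells were summed. The ratio of *Csf1* in CD3ϵ-/- TAC turned to 0.80 with the limit of 400 CPM and to 0.96 among members with both genes, and that of *Arg1* to −0.96 among the latter. In CD8+T cell-depleted TAC, *Hgsnat* turned to 0.11 without the deepest members, *Fn1* to 0.0069 with the limit of 400 CPM, *Osm* to −0.033 without the top cell and *Csf1* to −0.018 among members with both genes. For *Osm* the top cell of each group was left out, and that of CD8+T cell-depleted TAC gave 66.9% of the reads there. The cause of these turns was not tested. The levels without the top cell, among members with both genes and within single TAC groups, and the denominator with the 4 upper limits, were chosen after seeing the data. No paired analysis was possible because each group was 1 sample. The spread between mice is not known, and with 19 to 55 members per TAC group the intervals of the differences in share to WT TAC reached from −2.54 to 1.05 percentage points.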
